A study of Rattus norvegicus with 140 samples.

Results

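Livers of 17 unheated control rats, out of 140 arrays of 4 organs in the series, were compared with each other and with no heated array. They were all the unheated liver arrays in the files used here. There were 6 control rats killed when heated rats reached their highest core temperature (TcMax), 6 killed after 24 h of recovery of the heated rats and 5 killed after 48 h. Expression was measured as intensity on Affymetrix Rat Gene 1.1 ST arrays, 1 array per liver, and is given here as log2(intensity + 16), on which a difference of 1 is a 2-fold change. All 17 were male Fischer 344 rats of 2 to 3 months carrying telemetry implants, kept at 22 °C under 12:12 h of light and dark with free access to chow and water. The labels say that control rats stayed briefly in the incubator at ambient temperature, until core temperature held at or below 37.3 °C, and then went back to their cages. The methods of the study instead say that controls were never put in the incubator. The clock time at which each rat was killed is not given in the sources used here. The 3 groups thus differ in time since handling, possibly in clock time, feeding state and array run, and in the individual rats. These cannot be told apart.

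Liver cells keep time with a feedback loop in which the activators Bmal1, Clock and Npas2 switch on the repressors Per and Cry, while Nr1d1 (Rev-erb alpha) represses Bmal1. The loop drives output factors such as Dbp, Tef and Hlf, and through them enzymes of liver metabolism. Feeding raises insulin and the enzymes of glucose use and fat synthesis, whereas fasting and handling stress act on the liver through glucagon and glucocorticoids, hormones that also reset the clock.

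The promoters of 3 clock genes are shown because Nr1d1 was the clock gene that passed the test, Bmal1 is its known target, Per2 differed between organs, and each holds a motif that clock factors are known to bind. The first was chosen by the rule for named genes and the other two after their values were seen. Each is the RefSeq sequence (build GRCr8) from 250 bases before to 50 bases after the annotated start of the gene, written 5′ to 3′ on the strand of the gene, with the motif in capitals. Nr1d1 lies on chr10:84229405-84229704 on the minus strand, with an E-box (CACGTG) 191 bases before the start. Bmal1 lies on chr1:176766078-176766377 on the plus strand, with an element of the kind bound by Rev-erb and ROR receptors (TAGGTCA) 16 bases before the start. Per2 lies on chr9:99496944-99497243 on the minus strand, with a D-box (TTATGTAA), the element of Dbp and Nfil3, 192 bases before the start.
Nr1d1: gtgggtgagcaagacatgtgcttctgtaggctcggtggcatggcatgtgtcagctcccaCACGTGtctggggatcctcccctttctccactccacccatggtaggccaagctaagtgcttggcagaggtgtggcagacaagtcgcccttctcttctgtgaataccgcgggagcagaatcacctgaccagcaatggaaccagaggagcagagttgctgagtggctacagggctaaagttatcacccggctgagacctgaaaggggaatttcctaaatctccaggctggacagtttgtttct
Bmal1: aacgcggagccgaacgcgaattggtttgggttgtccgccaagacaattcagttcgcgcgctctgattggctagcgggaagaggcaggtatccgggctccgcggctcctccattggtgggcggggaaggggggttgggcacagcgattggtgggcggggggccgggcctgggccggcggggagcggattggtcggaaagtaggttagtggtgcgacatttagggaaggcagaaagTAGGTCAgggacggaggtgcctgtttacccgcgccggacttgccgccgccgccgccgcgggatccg
Per2: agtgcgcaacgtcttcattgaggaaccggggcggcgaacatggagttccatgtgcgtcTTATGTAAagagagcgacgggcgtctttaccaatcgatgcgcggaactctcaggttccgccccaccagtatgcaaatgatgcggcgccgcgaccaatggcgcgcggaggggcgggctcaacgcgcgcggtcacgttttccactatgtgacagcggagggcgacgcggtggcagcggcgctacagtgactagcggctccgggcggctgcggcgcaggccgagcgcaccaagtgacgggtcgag
Of the 42 clock and clock output genes with a transcript ID on the array, 37 had a promoter in the table, some more than 1 (39 promoters in all). On either strand, 7 of the 39 held the E-box CACGTG, 4 held TAGGTCA or TGGGTCA, 2 held the D-box TTATGTAA or TTACGTAA, and 1 held the cyclic AMP element TGACGTCA. The same motifs stood in 6.42%, 6.6%, 1.01% and 1.83% of all 33469 promoters of that length. No motif contains another, and a match is a description of these letters only.

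All 17 arrays carried the profile of liver. Albumin intensity was 6160 to 7410 and the summed intensity of 9 hepatocyte genes was 43000 to 50000, while each of 8 pancreatic and 5 kidney marker IDs had a mean intensity under 100. Median array intensity was 42.1 to 46.8 in TcMax controls, 39.4 to 47.0 at 24 h and 39.9 to 42.5 at 48 h, and the median correlation of an array with the others was 0.942 to 0.967 across transcripts. At 24 h the brightest array, replicate 6, stood at 47.0 and the other 5 at 39.4 to 42.3. The sample tags carry 1 of 3 prefixes (09, 11 and 12), whose meaning the labels do not give, and each prefix occurs in all 3 groups. The split was uneven, with 2, 2 and 2 TcMax livers, 4, 1 and 1 at 24 h and 1, 2 and 2 at 48 h.

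Some rats stood apart from the rest before any comparison of groups. Counting transcripts at least 2-fold beyond all 16 other livers, TcMax rat 6 was above the rest in 28 and below in 3, TcMax rat 1 above in 4 and below in 9, and 48 h rat 3 above in 9 and below in 11. The 28 of rat 6 included Zbtb16, Fkbp5 and Tsc22d3, which glucocorticoids induce, and those of rat 1 included Dbp, Per3, Bmal1 and Npas2 of the clock. The transcripts in which 48 h rat 3 was higher included the acute-phase genes A2m and Pla2g2a. Many of the differences below are given with and without these rats.

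Between 24 h and TcMax controls 15 transcripts differed at an adjusted p below 0.05 and at least 2-fold (limma, Benjamini-Hochberg over the 14607 of 29214 IDs with the larger SD over the 17 arrays). At 24 h 6 rose (0.0411% of those tested) and 9 fell (0.0616%). Between 48 h and TcMax controls 11 rose (0.0753%) and 40 fell (0.274%). Between 48 h and 24 h controls none passed in either direction with limma, and at an unadjusted p below 0.05 the 48 h livers were higher in 335 transcripts (2.29%) and lower in 375 (2.57%). At the same unadjusted level 572 rose (3.92%) and 1300 fell (8.9%) at 24 h, and 690 rose (4.72%) and 1923 fell (13.2%) at 48 h, both against TcMax. Groups without overlap were seen in 93 IDs higher (0.318% of 29214) and 83 lower (0.284%) at 24 h, and in 231 higher (0.791%) and 306 lower (1.05%) at 48 h. With the adjusted p alone 13 rose (0.089%) and 16 fell (0.11%) at 24 h, and 33 rose (0.226%) and 165 fell (1.13%) at 48 h. The first and second comparisons share the 6 TcMax rats, so they are not independent. Every one of these calls rests on the SD filter: with all 29214 IDs tested, no transcript passed in any of the 3 comparisons. The methods of the study filter on the SD over all arrays of an organ. With the SD taken over all 34 liver arrays in that way, 4 rose and 6 fell at 24 h, 3 rose and none fell at 48 h, and all 13 were among the calls above. With each array centred on its median the unadjusted split turned, with 1154 higher and 800 lower at 24 h and 1792 higher and 1147 lower at 48 h. Without TcMax rats 1 and 6 there were 41 calls at 24 h, 13 of the 15 among them, and 130 at 48 h, 48 of the 51 among them.

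Nr1d1, the repressor arm of the clock, had the largest 24 h difference from TcMax among the clock genes. Its lowest, median and highest TcMax values were 7.08, 9.78 and 10.67, and at 24 h they were 5.55, 6.87 and 7.47. The 48 h livers read 9.07, 9.28, 8.57, 8.28 and 6.59. Only the lowest TcMax liver, rat 6, lay inside the 24 h range, and the 48 h group overlapped both of the others. Nr1d1 fell by 2.53 at 24 h (SE 0.42, 5.76-fold, limma adjusted p = 0.00255), differed by −2.72 without TcMax rats 1 and 6 (adjusted p = 0.000164), and was called in each of 17 fits that left out 1 array. At 48 h the difference from TcMax was −0.90 (adjusted p = 0.28), and from 24 h it was 1.63 (adjusted p = 0.962). The array annotation gives this ID to both Nr1d1 and the overlapping gene Thra, and the name Nr1d1 is that of the study's own gene table.

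Genes that Nr1d1 is known to repress (Bmal1, Npas2 and Cry1) had higher means at 24 h, and none passed both thresholds. Cry1, a repressor of Clock and Bmal1, was 5.90, 6.35 and 7.43 in TcMax livers (lowest, median and highest) and 6.89, 7.45 and 8.01 at 24 h. The 24 h and TcMax ranges overlapped through rat 6 alone. Cry1 was higher by 0.997 at 24 h (SE 0.20, limma adjusted p = 0.0156), just under the 2-fold minimum, and by 1.08 without rats 1 and 6 (adjusted p = 0.00367), when it passed both thresholds. Bmal1 was 6.52 in rat 1 and 8.84 to 9.39 in TcMax rats 2 to 5, against 9.40 to 9.55 at 24 h and 9.43, 9.32, 9.08, 9.38 and 9.28 at 48 h. The 24 h livers all lay above all TcMax livers, yet the difference of 0.80 did not pass (adjusted p = 0.214), with an SD of 1.07 in the TcMax group and 0.05 at 24 h. Without rat 1 the Bmal1 difference was 0.37 (adjusted p = 0.297). Npas2, which can stand in for Clock, was 7.28 in rat 1 and 8.73 to 9.76 in the other 16 livers, and its difference at 24 h was 0.65 (adjusted p = 0.255), or 0.31 without rat 1 (adjusted p = 0.462).

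Per2 was 8.06 in rat 1 and 6.76 to 6.88 in the other TcMax livers, a narrow range that the 24 h livers exceeded in all but 1 case (6.86, 8.15 and 8.67 as lowest, median and highest). The 48 h livers read 7.48, 6.84, 7.05, 7.39 and 8.21 for Per2. The Per2 difference at 24 h was 1.01 (SE 0.25, adjusted p = 0.0637) and was 1.24 without rats 1 and 6 (adjusted p = 0.0151). Per3 was 8.88 in rat 1 and 5.54 to 6.51 in the other 5 TcMax livers, against 5.17 to 5.53 at 24 h, a difference of −1.19 (adjusted p = 0.0919), or −0.72 without rat 1 (adjusted p = 0.096). Per1 was 7.88 in rat 1 and 8.69 in rat 6, against 6.09 to 6.58 in TcMax rats 2 to 5 and 5.69 to 6.54 in the later groups. The Per1 difference at 24 h was −1.04 (adjusted p = 0.101), with all 24 h livers below all TcMax livers, and was −0.38 without rats 1 and 6 (adjusted p = 0.245).

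Dbp, the output factor that binds D-boxes, was 11.47 in TcMax rat 1 and at most 8.49 in any other liver. TcMax values of Dbp were 6.82, 8.40 and 11.47 as lowest, median and highest, 24 h values 6.58, 7.02 and 7.52, and 48 h values 7.11, 7.01, 7.37, 6.95 and 6.62. The later groups thus overlapped TcMax through rat 6 and, at 24 h, rat 2. The Dbp difference was −1.49 at 24 h (SE 0.40, adjusted p = 0.0961) and −1.50 at 48 h (adjusted p = 0.0574), and neither passed. Without rats 1 and 6 both Dbp differences were −1.18 and passed (adjusted p = 0.00165 and 0.00158). Tef, its close relative, was 8.03 in rat 1 and 6.29 to 7.19 in the other 16 livers. Hlf, the third of these factors, lay at 7.31 to 8.40 in all livers.

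Of the 14 core clock genes with an ID, 11 were tested: none rose and 1, Nr1d1, fell at 24 h, and none passed at 48 h. At the unadjusted level 5 were higher and 3 lower at 24 h, and 2 were higher and 2 lower at 48 h. That is 45.5% higher and 27.3% lower at 24 h and 18.2% and 18.2% at 48 h, beside 3.92%, 8.9%, 4.72% and 13.2% of all tested IDs. The median difference of the core clock genes was 0.06 at 24 h and 0.08 at 48 h, beside −0.05 and −0.06 over all tested IDs. Of the 28 clock output genes with an ID, 24 were tested, and Upp2 was the one that fell, at both times. Usp2, a deubiquitinase under clock control, was 9.39 in rat 1 and 9.32 in rat 6 but 5.91 to 6.87 in TcMax rats 2 to 5, against 6.68 to 7.98 in the later groups. Por, the electron donor of cytochromes P450, showed the same pair on top, with 10.32 in rat 6, 9.59 in rat 1 and at most 9.12 elsewhere. The remaining tested genes of both lists, among them Rora, Cry2, Nfil3 and Pdk4, passed in neither comparison, and Clock was among those the SD filter left untested.

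**Figure D1:**
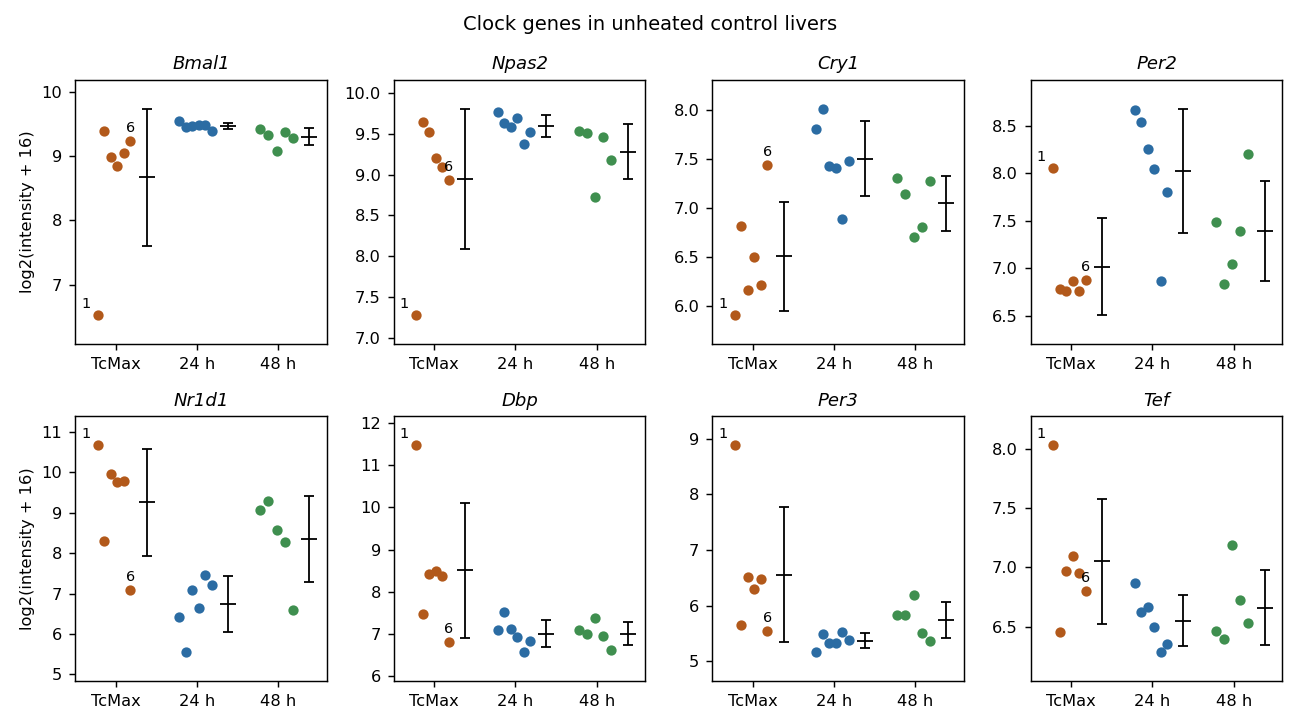
Log2(intensity + 16) of 8 clock genes (vertical axes) in the TcMax, 24 h and 48 h control livers (horizontal axes). Each point is 1 liver, bars are mean ± SD, and 1 and 6 mark TcMax rats 1 and 6. Rat 1 is lowest in Bmal1 and Npas2 and highest in Nr1d1, Dbp, Per3 and Tef, while the 24 h livers lie lowest in Nr1d1 and close together in Bmal1.

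Upp2, a liver uridine phosphorylase and clock output gene, fell at both later times. It was 8.29, 9.17 and 10.71 in TcMax livers (lowest, median and highest) and 6.73, 7.37 and 7.98 at 24 h, so that no 24 h liver reached any TcMax liver. At 48 h Upp2 was 7.42, 8.35, 8.51, 7.56 and 6.82, with replicates 2 and 3 inside the TcMax range. Upp2 fell by 1.94 at 24 h (SE 0.30, 3.83-fold, limma adjusted p = 0.00184) and by 1.59 at 48 h (adjusted p = 0.016), and differed by −1.42 and −1.07 without rats 1 and 6 (adjusted p = 0.00486 and 0.0154). Without 48 h replicate 5 the adjusted p at 48 h was 0.0517. Hsd17b2, which oxidises estradiol and testosterone, was 8.89, 10.54 and 11.77 in TcMax livers and 8.33, 8.69 and 9.17 at 24 h, overlapping only through rat 6. Hsd17b2 fell by 1.56 at 24 h (adjusted p = 0.00616) and by 1.48 at 48 h (adjusted p = 0.016), where the call was lost without 48 h rat 3 (−1.34, adjusted p = 0.0566).

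Ppard, a nuclear receptor for fatty acids, was 6.98, 7.95 and 9.15 in TcMax livers and 9.19 to 9.50 at 24 h, with no overlap. At 48 h it was 9.07, 9.04, 8.79, 9.21 and 9.47, overlapping TcMax through rat 2 alone. Ppard rose by 1.35 at 24 h (limma adjusted p = 0.00255) and by 1.13 at 48 h (adjusted p = 0.0195). The spread lay in the TcMax group, with an SD of 0.82 beside 0.15 at 24 h. In 12 of 17 fits that left out 1 array the 48 h call of Ppard held.

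Of 23 lipogenesis and feeding genes with an ID, 18 were tested: none passed at 24 h, 1, Pnpla3, rose at 48 h, and none fell. At the unadjusted level 4 were higher and 1 lower at 24 h, and 8 were higher and none lower at 48 h, with medians of 0.21 and 0.17 beside −0.05 and −0.06 over all tested IDs. That is 22.2% higher and 5.56% lower at 24 h and 44.4% and 0% at 48 h, beside 3.92%, 8.9%, 4.72% and 13.2% of all tested IDs. Pnpla3, a lipid droplet lipase that insulin and sugar induce, was 6.55, 8.54 and 9.65 in TcMax livers and 10.63, 9.99, 9.02, 10.18 and 9.01 at 48 h. Pnpla3 rose by 1.44 at 48 h (adjusted p = 0.0417), with overlapping groups, and the call held in 10 of 17 fits without 1 array. TcMax rat 5 was lowest of all livers in Pnpla3, and also in Scd, the stearoyl desaturase (10.34, against 11.39 or more in the other 16), and in Pnpla5 (4.603). Of 26 fasting genes with an ID 20 were tested and none passed both thresholds. Cpt1a, the gate of fatty acids into mitochondria, was 10.60 to 10.93 in TcMax livers and 9.46 to 10.29 at 24 h, without overlap. The Cpt1a difference of −0.83 (SE 0.16, 1.78-fold) passed the adjusted p (0.0117) but not the 2-fold minimum, as did that of −0.65 at 48 h (adjusted p = 0.0455).

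**Figure D2:**
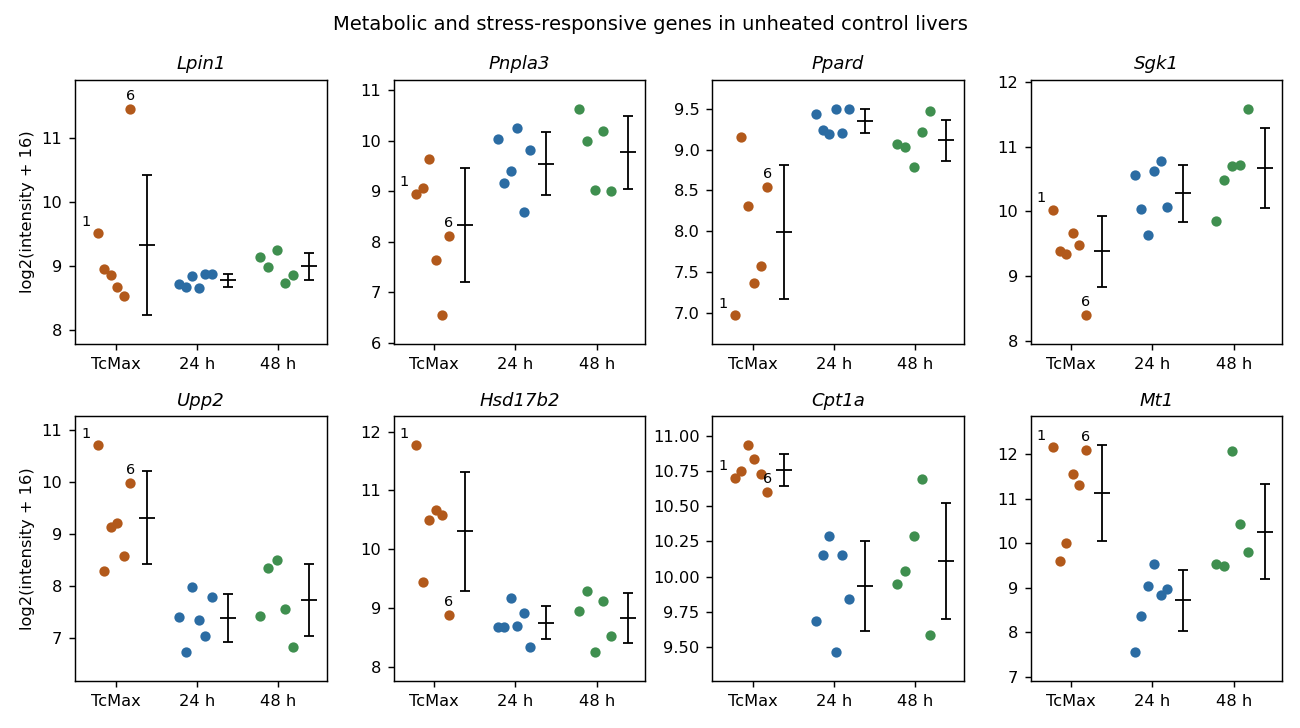
Log2(intensity + 16) of 8 metabolic and stress-responsive genes (vertical axes) in the TcMax, 24 h and 48 h control livers (horizontal axes). Each point is 1 liver, bars are mean ± SD, and 1 and 6 mark TcMax rats 1 and 6. All 24 h livers lie below the TcMax livers in Upp2, Cpt1a and Mt1, and rat 6 is highest in Lpin1 and lowest in Sgk1.

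Metallothioneins, small zinc-binding proteins that glucocorticoids and metals induce, were lower at 24 h. Mt1 was 9.61, 11.44 and 12.17 in TcMax livers (lowest, median and highest) and 7.56, 8.91 and 9.54 at 24 h, with no overlap. At 48 h Mt1 was 9.53, 9.49, 12.06, 10.43 and 9.81 and overlapped both other groups. Mt1 fell by 2.40 at 24 h (SE 0.38, 5.28-fold, limma adjusted p = 0.00238) and differed by −1.90 without rats 1 and 6 (adjusted p = 0.0162). The 48 h difference from TcMax was −0.86 (adjusted p = 0.257) and from 24 h it was 1.54 (adjusted p = 0.962). A second Mt1 ID and both IDs that the study's table names Mt2A also fell at 24 h, with differences of −2.37, −2.15 and −2.31. One Mt2A ID lost its call without rats 1 and 6 (adjusted p = 0.0758). These 4 IDs are near-identical genes or copies, so they are not 4 separate findings.

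Of 25 glucocorticoid and handling genes with an ID 21 were tested: the 2 that fell at 24 h were Mt1 and Mt2A, and at 48 h Sgk1 rose and Zbtb16 fell. At the unadjusted level 1 was higher and 7 lower at 24 h, and 1 higher and 9 lower at 48 h, with medians of −0.11 and −0.02. That is 4.76% higher and 33.3% lower at 24 h and 4.76% and 42.9% at 48 h, beside 3.92%, 8.9%, 4.72% and 13.2% of all tested IDs, whose medians were −0.05 and −0.06. Sgk1, a kinase that glucocorticoids and serum induce, was 8.39, 9.44 and 10.03 in TcMax livers and 9.85, 10.48, 10.71, 10.72 and 11.59 at 48 h. It rose by 1.29 (SE 0.25, adjusted p = 0.016), with 1 value of each group inside the range of the other, and differed by 1.201 without rats 1 and 6 (adjusted p = 0.00335). Zbtb16 was 9.81 in TcMax rat 6 and 6.80 to 7.74 in the other TcMax livers, and 5.98, 6.21, 6.91, 6.73 and 6.54 at 48 h. It fell by 1.31 (adjusted p = 0.034), and differed by −1.05 without rats 1 and 6 (adjusted p = 0.00606). The Zbtb16 call held in 9 of 17 fits that left out 1 array. Among the losses were those without rat 6 alone (−0.90, under 2-fold) and without 48 h rat 3 (−1.42, limma adjusted p = 0.0646). Fkbp5 and Tsc22d3, which glucocorticoids induce in many tissues, differed between the groups by −0.43 and −0.31 at 24 h (adjusted p = 0.485 and 0.573). Without rat 6 these differences were −0.06 and 0.002 (adjusted p = 0.887 and 0.996).

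The 40 transcripts that fell at 48 h had mean levels of 5.73 to 9.32 over the 17 arrays, with a median of 7.41. That is below the 8.07 of the 11 that rose and above the 5.69 of all tested IDs, and 17 of the 40 had no name. In 7 of the 40 the groups did not overlap, among them Scrt2, Prrt3, Kctd14, Atcay and C1qtnf12, none of which is in a pathway list here. In this order their calls held in 17, 14, 10, 13 and 12 of 17 fits that left out 1 array. Without 48 h rat 3 Atcay (−0.897) and C1qtnf12 (−0.829) lost their calls (limma adjusted p = 0.0652 for both). Without TcMax rats 1 and 6 the Prrt3 difference was −0.978, under 2-fold. Scrt2, a zinc finger repressor known from neurons, was 6.92, 7.19 and 7.65 in TcMax livers and 6.58, 5.75, 4.65, 5.06 and 5.86 at 48 h. It fell by 1.65 (SE 0.29, limma adjusted p = 0.0105). Cish, a feedback inhibitor of cytokine and growth hormone signals, fell by 1.73 (adjusted p = 0.0492) from 5.48, 7.92 and 8.97 to 6.38, 5.19, 5.87, 6.397 and 5.36, the lowest TcMax value being that of rat 1, and its call held in 6 of 17 fits without 1 array. Without rats 1 and 6 the Cish difference was −1.90 (adjusted p = 0.00649).

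The median of the 40 falling transcripts was 8.07 to 8.37 in TcMax rats 1 to 5 and 7.20 in rat 6, and 6.35 to 7.57 at 48 h. At 24 h it was 8.12 in replicate 6, the array with the highest median intensity, and 6.75 to 7.53 in the other 5. At nearly equal median intensity it was 8.27 in TcMax rat 4 (42.4), 7.20 in TcMax rat 6 (42.1), 7.33 in 24 h replicate 1 (42.3) and 6.76 in 48 h replicate 5 (42.5). These transcripts were chosen by the group difference, so their median is a description. With quantile normalization 10 rose and 31 fell at 48 h, all 41 among the 51, and with each array centred on its median 13 rose and 26 fell, 37 of these 39 among the 51. With the array median as a covariate 4 transcripts were called at 48 h, 2 of the 51 among them, whereas at 24 h 15 were called, 12 of the former 15 among them. Several 48 h differences were as large in that fit although their calls were lost, with 1.26 for Ppard, 1.04 for Etv6, 1.42 for Sgk1 and −1.67 for Upp2, while that of Kctd14 shrank from −1.04 to −0.40. In the same fit the differences of Nr1d1 (−2.43 at 24 h, adjusted p = 0.0235), Upp2 and Mt1 kept their direction.

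**Figure D3:**
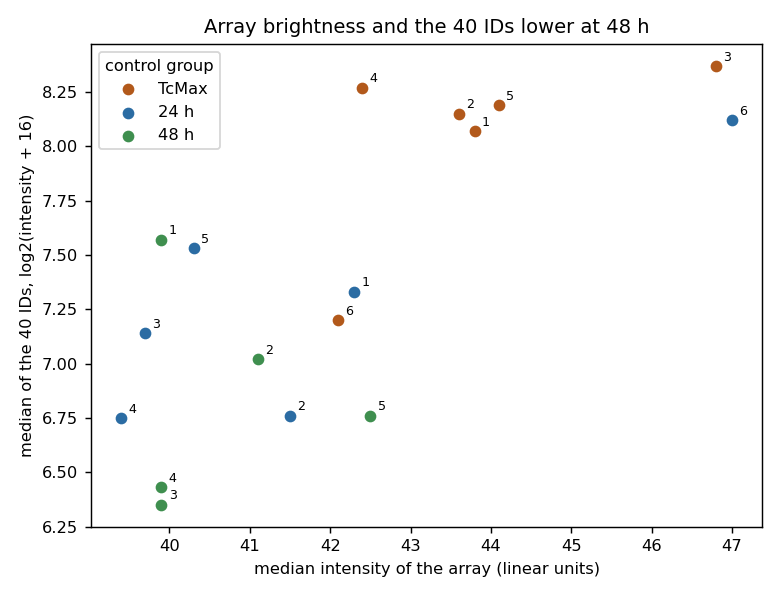
Median intensity of each array in linear units (horizontal axis) against the median log2(intensity + 16) of the 40 transcripts lower at 48 h (vertical axis). Points are the 17 livers, coloured by group and numbered by replicate. TcMax rats 1 to 5 and 24 h replicate 6 lie at the top, at 8.07 to 8.37, and TcMax rat 6 lies with the later groups at 7.20.

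Among the 11 transcripts that rose at 48 h, the largest difference was that of Pla2g2a, a secreted phospholipase of the acute-phase response. It was 5.20, 7.98, 11.33, 8.14 and 9.39 in the 48 h livers, against 5.18, 6.56 and 6.89 in TcMax livers, so that replicate 1 lay with the controls of TcMax and replicate 3 far above all. Pla2g2a rose by 2.19 (SE 0.56, limma adjusted p = 0.0417), in 8 of 17 fits that left out 1 array, and differed by 1.46 without 48 h rat 3 (adjusted p = 0.129). It was also the 1 exception among 19 named calls whose sign was the same within all 3 tag prefixes (lowest −0.04). At 24 h all 11 named calls, among them the near-identical Mt1 and Mt2A IDs, had the same sign in all 3. The calls were chosen by the differences in these same arrays, and at 24 h prefixes 11 and 12 hold 1 liver each. The agreement of signs is therefore a description and no test of the prefixes. A transcript with no gene name was 4.10, 4.99 and 5.28 in TcMax livers and 7.47, 6.63, 6.73, 6.68 and 6.31 at 48 h, with no overlap. It rose by 1.88 at 48 h (SE 0.26, adjusted p = 0.000527) and by 1.32 at 24 h (adjusted p = 0.00909). Etv6, an ETS family repressor, was 6.86, 7.53 and 7.92 in TcMax livers and 8.33, 8.58, 8.36, 8.32 and 8.82 at 48 h, a rise of 1.02 without overlap (adjusted p = 0.00872). The Etv6 call held in 13 of 17 fits that left out 1 array. Without TcMax rats 1 and 6 the Etv6 difference was 0.986, under 2-fold, and the call was lost.

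48 h rat 3 was the liver with an acute-phase profile. It was the highest of 17 livers in 17 of 25 acute-phase IDs (68.0%), beside 6.71% of all IDs. A2m, alpha-2-macroglobulin, the acute-phase protein of rats, was 10.59 in rat 3 and 8.16 in 48 h replicate 5, and 5.01 to 6.68 in TcMax and 5.13 to 6.36 in 24 h livers. Reg3g, an antimicrobial lectin, was 7.34 in rat 3 and at most 4.404 elsewhere, near the floor of the scale. In the other organs of rat 3 the count was 1 of 25 in kidney (4.0%), 3 in heart (12.0%) and 0 in lung, beside 4.14%, 9.32% and 5.41% of all IDs. Pla2g2a was nevertheless highest in rat 3 in 2 of the other 3 organs and Reg3g in 1. Some markers of erythroid cells and neutrophils were also high in this liver, with 3 of 4 erythroid IDs and 3 of 9 neutrophil IDs at their highest. Of the lymphocyte IDs 0 of 9 were at their highest, of the hepatocyte IDs 3 of 9 and of the bile duct IDs 2 of 5. Summed intensities of the erythroid and neutrophil markers were 2590 and 280, both the highest of the 17 livers. The erythroid sum was 548 to 2030 in TcMax and 669 to 1220 in 24 h livers. The neutrophil sum was 124 to 164 in 24 h livers. The highest TcMax neutrophil sum, that of rat 6, lay between the 24 h range and 280. Among control lungs, that of 48 h rat 3 was highest in 3 of 4 erythroid and 5 of 9 neutrophil IDs. Its kidney was highest in 2 of 4 and 0 of 9, and its heart in 0 of 4 and 4 of 9. The mean intensity of each neutrophil ID was under 100 in liver. Of 35 cell cycle IDs this liver was lowest in 12 (34.3%, beside 5.68% of all IDs). The part of blood cells in the profile was not tested. In the same liver Mup5, a major urinary protein, was 6.03 against 10.27 or more in the other 16, as were 7 IDs with no name used here. Without 48 h rat 3 the comparison with TcMax gave 9 calls in place of 51. Of the acute-phase list, which does not hold Pla2g2a, none of 11 tested genes passed at either time.

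**Figure D4:**
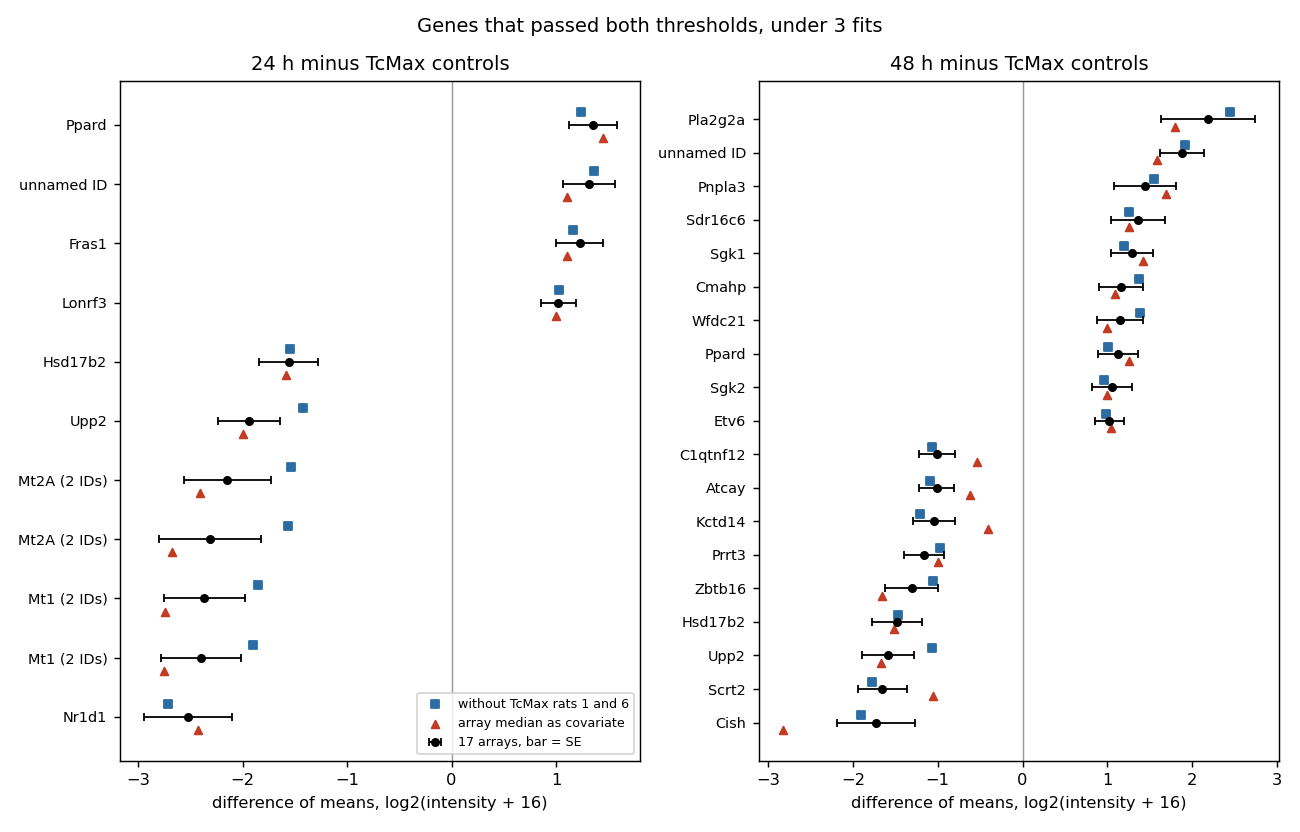
Difference of group means in log2(intensity + 16) (horizontal axes) for named genes and 1 unnamed ID that passed both thresholds (vertical axes), 24 h minus TcMax on the left and 48 h minus TcMax on the right. Black points with SE bars use all 17 arrays, squares leave out TcMax rats 1 and 6, and triangles add the array median as a covariate. Scrt2, Kctd14, Atcay and C1qtnf12 move toward 0 with the covariate, while Nr1d1 at 24 h (−2.53) stays near its value.

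TcMax rat 1 carried its clock profile in all 4 organs of the same animal, matched through the rat number in the labels. Its Bmal1 was 5.75 in kidney, 5.68 in heart and 5.55 in lung, below the 7.41, 7.36 and 7.37 that were the lowest of the other 17 controls of each organ. Its Dbp was 11.58, 11.99 and 11.50, above the highest of the others at 10.51, 11.43 and 9.96. Of the 14 core clock genes rat 1 was highest in 5 and lowest in 5 in liver, highest in 5 and lowest in 2 in kidney, 6 and 3 in heart, and 5 and 3 in lung. Of all IDs it was highest in 5.16%, 3.91%, 11% and 7.54% and lowest in 6.41%, 1.15%, 4.44% and 4.37% in the same order of organs. These values describe 1 rat and were chosen for it, so no test was made.

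TcMax rat 6 stood apart in glucocorticoid-induced genes in the same way. Zbtb16 was 9.81 in its liver, 8.21 in kidney, 9.71 in heart and 9.92 in lung, above the 7.74, 5.92, 8.37 and 7.10 that were the highest of the other controls. Fkbp5 was 8.87, 8.90, 8.69 and 8.86, where the other controls reached 7.09, 7.10, 7.41 and 6.99. Of 25 glucocorticoid and handling IDs it was highest in 12 in liver (48.0%), 14 in kidney (56.0%), 11 in heart (44.0%) and 18 in lung (72.0%), beside 10.2%, 9.83%, 5.42% and 6.05% of all IDs. In liver rat 6 was lowest of 17 in 2 of the 25 IDs, among them Sgk1 (8.39), whose value in rat 6 was highest in kidney (11.83), heart (8.95) and lung (10.28). Genes that fasting raises were also high in this liver, with Lpin1 at 11.45 (9.50 or less elsewhere), Ppargc1a at 9.12 (7.69 or less) and Igfbp1 at 10.34 (9.04 or less), and rat 6 was highest in 8 of 26 fasting IDs. Of 27 heat shock and cold-inducible IDs it was highest in 11 in liver, 11 in kidney, 5 in heart and 9 in lung. Among them in liver were Hsph1 (8.68, at most 8.55 elsewhere) and Dnajb1 (7.86, at most 7.58), a partner and a co-chaperone of Hsp70, while Hspa1b, the inducible Hsp70, was dim in all livers (5.20 in rat 6, 4.32 to 5.80 in the others). The Kupffer cell and macrophage markers were highest in rat 6 in 8 of 9 IDs, with a summed intensity of 7840 beside 3140 to 6290 in the other 16 livers. Their part in these values was not tested.

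**Figure D5:**
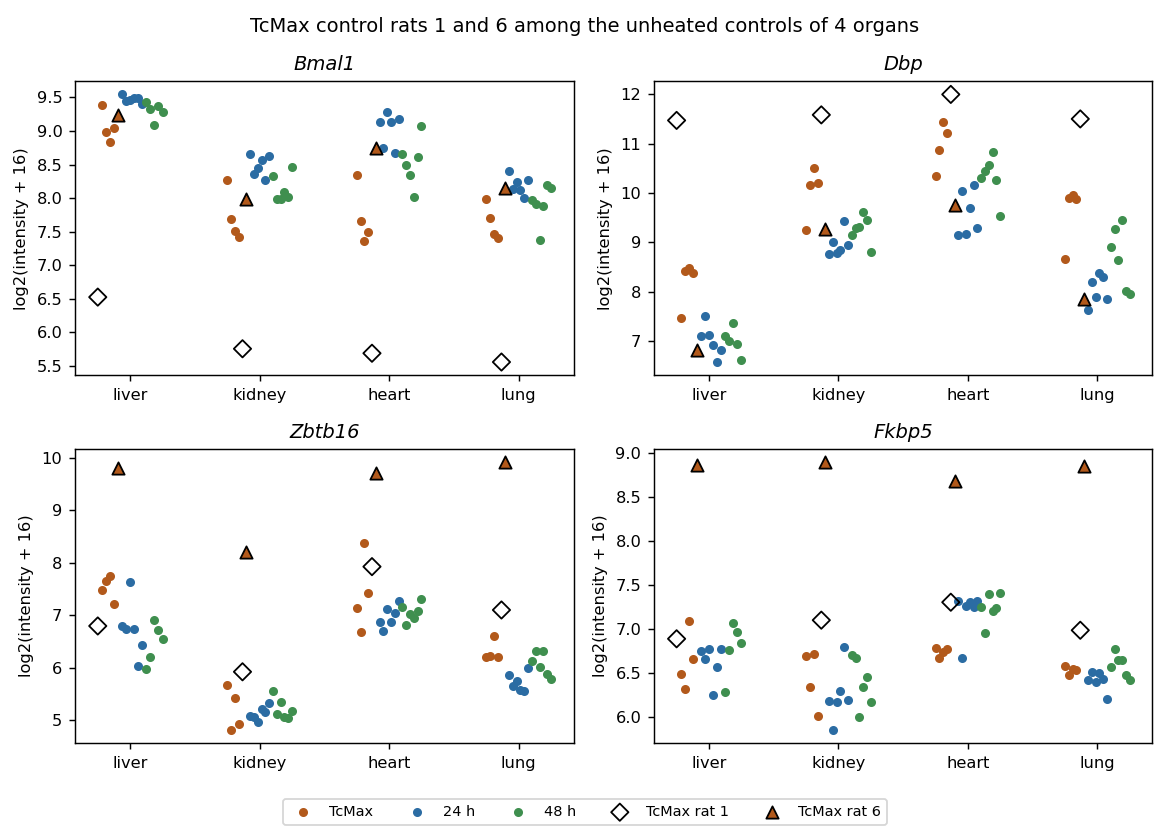
Log2(intensity + 16) of Bmal1, Dbp, Zbtb16 and Fkbp5 (vertical axes) in the unheated controls of liver, kidney, heart and lung (horizontal axes). Each point is 1 array, coloured by group, the open diamond is TcMax rat 1 and the triangle is TcMax rat 6. In each organ rat 1 is lowest in Bmal1 and highest in Dbp, and rat 6 is highest in Zbtb16 and Fkbp5.

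Whether a difference between control groups was the same in another organ of the same rats was tested on the difference of liver minus that organ within each rat (limma, the same 14607 IDs, 6 TcMax and 6 24 h rats per organ, and 4 48 h rats for kidney and heart and 5 for lung). At an adjusted p below 0.05, liver and kidney differed in 18 IDs at 24 h (0.123%) and 136 at 48 h (0.931%), liver and heart in 14 (0.0958%) and 243 (1.66%), and liver and lung in 17 (0.116%) and 459 (3.14%). With all 29214 IDs tested the 24 h counts were 0, 1 and 0, so these rest on the filter, whereas the 48 h counts were 326, 332 and 217. The values of each organ were made separately, so only the differences between groups can be set side by side. The IDs were kept by their SD in liver, and some genes were named for their liver differences in these arrays. A larger difference in liver is therefore partly built in.

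Per2 differed between the liver and each other organ at 24 h. Its 24 h minus TcMax difference was 1.01 in liver, −0.43 in kidney, −1.18 in heart and −0.85 in lung, and liver differed from each (by 1.44, 2.19 and 1.86, adjusted p = 0.0285, 0.00148 and 0.0279). In kidney, heart and lung rat 1 was the highest in Per2, at 8.65, 9.51 and 9.37. Without rats 1 and 6 liver differed from the same organs by 1.41, 2.06 and 1.84 in Per2 (adjusted p = 0.101, 0.0209 and 0.0531), so that the call held against heart alone. Bmal1 had a higher mean at 24 h in all 4 organs, by 0.80, 1.05, 1.48 and 0.82 in liver, kidney, heart and lung, and by 0.37, 0.71, 1.11 and 0.46 without rat 1. Dbp differed by −1.49, −1.195, −1.35 and −1.58 in the same order, and by −0.90, −0.91, −1.14 and −1.20 without rat 1. The Nr1d1 difference was larger in liver than in heart (by 1.71 toward lower values, adjusted p = 0.0293) and lung (by 1.15, adjusted p = 0.0459). Without rats 1 and 6 the Nr1d1 call held against heart (adjusted p = 0.0476) and not against lung (adjusted p = 0.128), and liver differed from kidney by −1.71 (adjusted p = 0.0458). Mt1 fell by 2.40 in liver at 24 h and differed by −0.37, −0.25 and −0.18 in kidney, heart and lung. Liver minus organ was −2.03, −2.15 and −2.22 for Mt1 (adjusted p = 0.0192, 0.0293 and 0.0279), and no such call of this ID held without rats 1 and 6 (−1.70, −1.70 and −1.95, adjusted p = 0.0747, 0.0937 and 0.0936).

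The other gene groups gave few or no calls. Over all 16 pathway lists, 380 of 428 genes had an ID, and the 12 lists without a call had 192 tested genes, 9 higher and 22 lower at the unadjusted level at 24 h and 11 higher and 25 lower at 48 h. Pooled over the 12 lists these are 4.69%, 11.5%, 5.73% and 13% of the genes tested, near the 3.92%, 8.9%, 4.72% and 13.2% of all tested IDs. The 12 lists covered fasting, cholesterol and bile acid synthesis, immediate early genes, the acute phase, and heat shock and cold-inducible genes. They also covered the integrated stress response, drug metabolism, interferon, the cell cycle and both zones of the lobule. Single lists differed from the pooled shares. Lower at 24 h and 48 h were 33.3% and 40% of 15 drug genes and 30% and 25% of 20 fasting genes. For 24 immediate early genes it was 12.5% and 29.2%, and for 7 bile acid genes 14.3% and 42.9%. The heat shock and cold-inducible, the cell cycle and the periportal lists held none lower at either time. List medians over all 16 ranged from −0.12 to 0.21 at 24 h and from −0.12 to 0.17 at 48 h. In the drug list Nr1i3, the receptor CAR, differed by −0.78 at 48 h (adjusted p = 0.0333) and Ahr, the dioxin receptor, by −0.67 (adjusted p = 0.0399), both under 2-fold and both with no overlap. Without TcMax rats 1 and 6 Nr1i3 differed by −0.668 (limma adjusted p = 0.04) and Ahr by −0.469 (adjusted p = 0.0717).

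Of 13 cell type lists (91 of 102 genes with an ID, 65 tested) none held a call. The Kupffer cell and macrophage list had the lowest median, −0.38 at 24 h and −0.22 at 48 h. At the unadjusted level 6 of 9 were lower at 24 h (66.7%, beside 8.9% of all tested IDs) and none at 48 h (beside 13.2%). The summed intensity of this list was 4180 to 7840 in TcMax, 3880 to 5210 in 24 h and 3140 to 6100 in 48 h livers. TcMax rat 6, highest in 8 of the 9 IDs, gave the 7840, and without it the highest sum was 6290. The counts and medians of the list include rat 6. The part of these cells in the 24 h differences was not tested. In whole liver, fewer cells of a type and less RNA per cell cannot be told apart. Precision is limited by the number of rats, 5 or 6 a group with 1 array each.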

How the data were processed

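RNA of 17 unheated rat livers was read on whole-transcript arrays, 1 array per liver. The authors ran Affymetrix Expression Console 1.1 on each organ separately, and the deposited intensities are its iterPLIER summaries on a linear scale. They are summaries over many probes, so a dim value carries the background of its array. The deposited values hold no offset, so log2(intensity + 16) was taken, as in the study's methods. Groups came from the labels.

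A mean per group was fitted with limma 3.58.1 in R 4.3.3 to the 14607 of 29214 IDs with the larger SD over the 17 arrays. A call needed a Benjamini-Hochberg adjusted p below 0.05 and a 2-fold change. The fit was tested on simulated data. IDs took the platform's symbol where it gives 1 gene (18644 IDs), and 96 were named from a gene table of the study. The labels number the rats, and nothing ties same-numbered rats of different groups. The 52 heated arrays of other organs were not used.

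The members and gene lists were chosen with earlier results of these data known. Named genes were all clock and clock output genes, the non-overlapping calls with the largest differences (up to 10 per direction and comparison) and up to 4 calls per list. All other genes in the text (such as Hsd17b2, Cpt1a, Cish, Pla2g2a, A2m, Scd, Fkbp5, Lpin1 or Ahr) were chosen after their values were seen. Counts over all IDs include 1 gene that is not reported here and was left out of its list. Alternatives changed the filter, offset, scaling, fit or arrays. Those without TcMax rats 1 and 6, without 1 tag prefix and with the array median were chosen after seeing the data.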

Additional observations from a re-analysis of the deposited data

Results flagged for a closer look

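In 19 of 255 groups of values checked (85 genes in 3 groups) the highest or lowest liver was far from the rest by the gap to its neighbour, where chance gives about 1 in 20 groups. Many of the genes had been picked for these rats. In TcMax rat 1 the highest were Dbp (11.47), Per3 (8.88) and Per2 (8.06), and the lowest were Chka (8.68), a choline kinase, Npas2 (7.28) and Bmal1 (6.52). In TcMax rat 6 the highest were Lpin1 (11.45), Ahr (10.50), Nr1i3 (10.39), Foxo3 (9.84), Zbtb16 (9.81), Fkbp5 (8.87), Tfrc (8.71) and Tsc22d3 (8.43). In 48 h rat 3 Hmox1 (8.04) and Reg3g (7.34) were highest and Mup5 (6.03) lowest. Other single livers were 48 h rat 2, highest in Ces2g (8.77), and 24 h rat 3, highest in Timeless (6.26).

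The difference between control groups was itself tested between liver and another organ of the same rats. Among 85 named genes, 44 of these differences passed (limma adjusted p below 0.05). Over all tested IDs the shares that passed against kidney, heart and lung were 0.123%, 0.0958% and 0.116% at 24 h. At 48 h they were 0.931%, 1.66% and 3.14%. Many of the genes were named for their liver differences in these same arrays. A larger difference in liver is therefore partly built in, and the 44 is a description. Values are liver minus the other organ in log2(intensity + 16). The 24 h minus TcMax difference was higher in liver than in kidney for Per2 (1.44) and lower for both IDs of Mt1 (−2.04 and −2.03). Against heart at 24 h it was higher in liver for Per2 (2.19) and Fras1 (1.85) and lower for both IDs of Mt1 (−2.15 and −2.08), Mt2A (−2.04) and Nr1d1 (−1.71). Against lung at 24 h it was higher in liver for Per2 (1.86), Fras1 (1.48) and Lonrf3 (1.13) and lower for both IDs of Mt1 (−2.22 and −2.19), Mt2A (−1.98), Upp2 (−1.94) and Nr1d1 (−1.15). The 48 h minus TcMax difference was higher in liver than in kidney for the unnamed transcript described above (2.02), Pla2g2a (1.95), Cmahp (1.66) and Etv6 (1.09) and lower for Mup5 (−2.18). Against heart at 48 h it was higher in liver for Pla2g2a (2.73), that transcript (2.63), Wfdc21 (2.29), Cmahp (1.90) and Sgk1 (1.42) and lower for Cish (−2.01), Scrt2 (−1.39) and Ahr (−1.09). Against lung at 48 h it was higher in liver for Cmahp (1.73), that transcript (1.72), Wfdc21 (1.53), Sdr16c6 (1.45), Sgk1 (1.35), Etv6 (1.08) and Sgk2 (1.05) and lower for Upp2 (−1.76), Scrt2 (−1.66), Hsd17b2 (−1.49), Prrt3 (−1.24), C1qtnf12 (−1.13), Atcay (−1.01) and Nr1i3 (−0.94).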

How the results depend on the processing

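The 15 calls at 24 h and 51 at 48 h, both against TcMax, depended on how the values were filtered and fitted. With all IDs tested or with variances not moderated none was called at either time, and with dim IDs left out 0 and 3. With all 6 liver groups in the fit 3 and 0 were called, with an offset of 1 in place of 16 it was 9 and 1, and with the SD taken over all 34 liver arrays 3 at 48 h. Without the fold minimum 29 and 198 were called, and with an unadjusted p and a 2-fold change 30 at 24 h and 23 between 48 h and 24 h. Without TcMax rats 1 and 6 the counts were 41 and 130, without the 5 arrays of tag prefix 12 they were 54 at 24 h and 3 between 48 h and 24 h, and with the array median as a covariate 4 at 48 h. The cause was not tested.

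Leaving out 1 array at a time gave 11 to 54 calls at 24 h, 9 to 109 at 48 h and 0 to 6 between 48 h and 24 h. The highest 24 h counts came without 24 h replicate 6 (54), TcMax replicate 6 (39) and 48 h replicate 3 (23). At 48 h the count was 109 without 48 h replicate 1 and 104 without TcMax replicate 6. It was 32, 17, 12 and 17 without TcMax replicates 2, 3, 4 and 5, and 9, 12 and 16 without 48 h replicates 3, 4 and 5. The 6 calls between 48 h and 24 h appeared without 48 h replicate 1. With the replicate number as a block 19 were called at 24 h and 36 at 48 h, all 15 of the 24 h calls among them. Same-numbered rats are different animals, and their deviations from the group means correlated at −0.36 to 0.107, so the numbers pair nothing.

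For liver minus kidney, heart and lung, leaving out 1 array gave 0 to 150, 1 to 87 and 0 to 80 IDs at 24 h, and 58 to 286, 22 to 477 and 57 to 1039 at 48 h. With all IDs tested the counts were 0, 1 and 0 at 24 h, and 326, 332 and 217 at 48 h. With an offset of 1 they were 0, 1 and 0 at 24 h, and 128 for heart and 41 for lung at 48 h. Without TcMax rats 1 and 6 they were 3 for heart and 5 for lung at 24 h, and 264 for kidney and 916 for lung at 48 h. Over the 51 tests of single genes and their alternatives 1314 results stayed on their side of the thresholds, 312 lost a call and 52 gained one. The direction reversed only for Tsc22d3 at 24 h, which was not called: it ran from −0.45 to 0.002 with 1 array left out (the latter without TcMax replicate 6), and was 0.115 without TcMax rats 1 and 6 and 0.136 without the arrays of tag prefix 12. Dim transcripts, near the background of an array, are the least certain of these values.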
